A study of Sus scrofa with 18 samples.

Results

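The potassium channel family was taken as every gene of the deposited gene table whose name begins with KCN. This gave 88 genes of 31908 in the table, spread over 21 lettered subfamilies, of which 78 passed a filter on low counts and were tested with 16325 genes in all. The animals were pig fetuses carried by Landrace x Large White gilts that had been inseminated with semen of the LR-M6 line, and no group received a treatment. The whole brain of each fetus was sampled on gestation day (GD) 45, GD60 or GD90, with 3 females and 3 males per day and 1 library per fetus, so that 18 libraries fell into 6 groups. Because each library held RNA of a whole brain, a lower level could come from fewer cells of a type or from less RNA per cell, and these cannot be told apart. Total counts ran from 15118843 to 19729783 per library, with a median of 16413097, and levels are given as CPM (a gene's share of the counts of its library, after trimmed-mean scaling). Male GD45 replicate 17 stood apart from the other libraries, and results that moved without it are given with that value.

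Potassium channels let potassium ions leave or enter a cell and thereby set the resting potential, shape the action potential and limit repetitive firing. Voltage-gated channels open on depolarisation, inward rectifiers pass current near rest, tandem-pore channels carry leak current, and calcium- or sodium-activated channels follow the internal concentration of those ions. Accessory subunits form no pore but change the gating or traffic of the channels, and the "silent" voltage-gated subunits form no working channel on their own but join KCNB subunits. In the mature brain, neurons carry most of these classes, while astrocytes clear potassium through inward rectifiers.

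The members share a selectivity filter, the short stretch of the pore that admits potassium ions, and its codons are shown for the members on which the results turn. The pig coding sequences were those of RefSeq on build Sscrofa11.1, in which 86 of the 88 members had an entry and KCNH4 and KCNJ18 were named only. Each run holds 45 bases from 5′ to 3′ in the direction of the gene, with the 15 bases of the 5 filter codons in capitals and 15 bases on each side in lower case.
KCNV1 (chr4:27648171-27648215, plus strand): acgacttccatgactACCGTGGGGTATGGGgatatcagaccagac
KCNF1 (chr3:125664725-125664769, minus strand): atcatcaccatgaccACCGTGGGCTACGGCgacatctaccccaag
KCNS1 (chr17:47486171-47486215, minus strand): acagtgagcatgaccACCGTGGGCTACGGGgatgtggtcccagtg
KCNJ16 (chr12:10396028-10396072, minus strand): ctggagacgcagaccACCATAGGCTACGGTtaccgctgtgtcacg
KCNJ9 (chr4:90409563-90409607, minus strand): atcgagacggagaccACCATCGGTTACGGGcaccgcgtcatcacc
KCNJ4 (chr5:9547567-9547611, plus strand): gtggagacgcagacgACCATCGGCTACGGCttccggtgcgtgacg
KCNH3 (chr5:15504068-15504112, plus strand): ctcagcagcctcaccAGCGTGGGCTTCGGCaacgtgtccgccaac
KCNH6 (chr12:15362942-15362986, minus strand): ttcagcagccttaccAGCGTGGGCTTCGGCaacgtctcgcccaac
KCNMA1 (chr14:79583022-79583066, minus strand): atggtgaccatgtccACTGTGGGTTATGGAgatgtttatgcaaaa

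The signature searched was threonine or serine, then valine, isoleucine or leucine, then glycine, then tyrosine, phenylalanine or leucine, then glycine, read in frame with the standard genetic code. At least 1 match was found in 72 of 72 channel-forming members, and 58 of the 58 that are not tandem-pore channels held exactly 1. Of the 14 tandem-pore members, which carry a pair of pore stretches per subunit, 12 held 2 matches and KCNK1 and KCNK7 held 1. None of the 14 accessory members held a match. This form of the signature was chosen after a wider form had been tried, which also allowed other residues and matched 14 of 14 tandem-pore members at 2 places but also 3 accessory members. The fourth codon was read as tyrosine in 57 of the 84 filters, as phenylalanine in 24 and as leucine in 3. Phenylalanine stood in all 6 KCNH filters, as in KCNH3 and KCNH6 above, although these genes moved in opposite directions late in gestation.

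Messenger RNA of the family as a whole rose with gestation day when levels were expressed per length as summed FPKM (CPM per kilobase, computed with the gene lengths of the file). Over the 88 members the sum had a median of 337 at GD45, with a range of 316 to 354 over 6 libraries. It was 449 at GD60, with a range of 423 to 477, and 735 at GD90, with a range of 708 to 753. The 3 days did not overlap, and the GD90 median was 2.18 times the GD45 median.

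The classes contributed unequally to this sum. The 27 voltage-gated members made up the largest class, with medians of 123, 174 and 285 FPKM at GD45, GD60 and GD90. The 10 silent subunits had medians of 24.1, 45.1 and 108 FPKM, and their ranges of 16.9 to 27.7, 36.1 to 61.3 and 95.3 to 120 did not overlap. The 15 inward rectifiers had medians of 26.5, 34.3 and 72.9 FPKM, so that the distance between GD60 and GD90 exceeded that between GD45 and GD60. The 14 accessory members stood at 87.8, 102 and 158 FPKM and the 8 calcium- or sodium-activated members at 32.6, 44.1 and 67.1 FPKM. The 14 tandem-pore members differed least between days, at 40.9, 48.7 and 57 FPKM, although their ranges of 35.9 to 41.9, 43.9 to 51.4 and 56.1 to 64.6 were also separate.

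**Figure D1:**
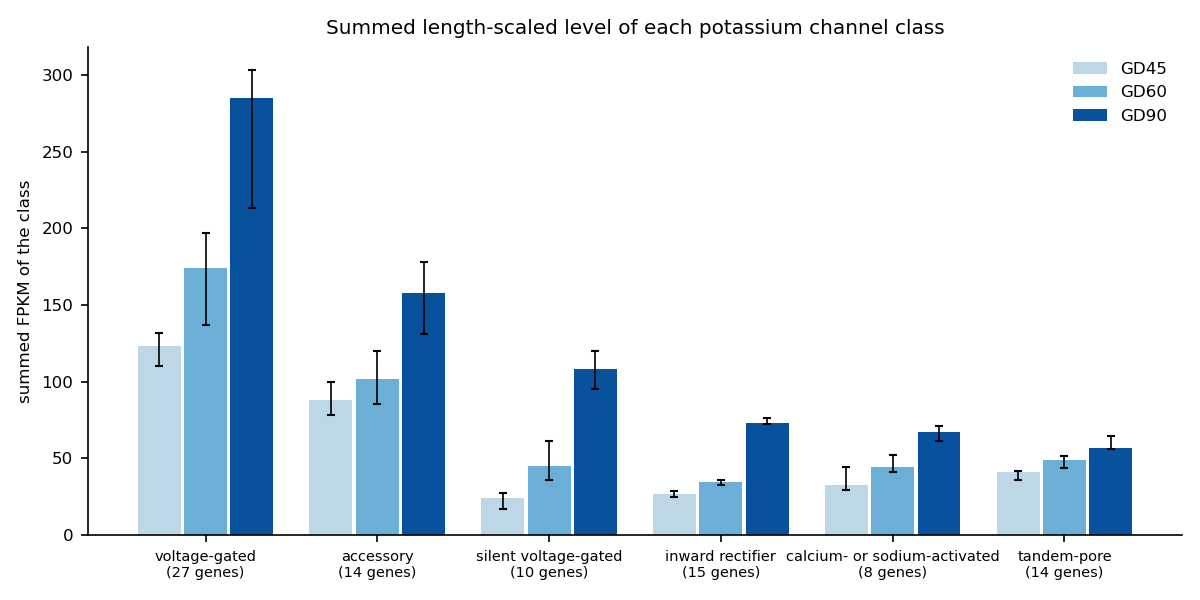
Summed FPKM (vertical axis, from 0) of each class of KCN genes at GD45, GD60 and GD90; bars are medians of 6 libraries and error bars run from the lowest to the highest library. The silent subunits stood at 24.1, 45.1 and 108 FPKM and the tandem-pore channels at 40.9, 48.7 and 57.

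Among single members, KCNF1, a silent subunit, had mean levels of 13.1, 29.2 and 64.8 FPKM at GD45, GD60 and GD90. KCNN1, a small-conductance calcium-activated channel, and KCNE5, an accessory subunit, each had a mean of 31.6 FPKM at GD90. The gene length used was 1515 bases for KCNF1 and 438 for KCNE5, under the lower quartile of 2506 bases over genes tested. Their ranks by FPKM, and the sums they enter, depend on these lengths. Other members led their subfamilies at lower levels, such as KCNAB2 at 28.3, KCNH3 at 25.5, KCNIP2 at 23.2 and KCNK4 at 19.5 FPKM at GD90. In the KCNA subfamily of axonal and somatic delayed rectifiers the leading member, KCNA3, reached only 3.39 FPKM at GD90.

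The first question was how the members differed between GD45 and GD60 within each sex. In females 19 of the 78 tested members were higher at GD60 and 0 lower at an adjusted p under 0.05 (edgeR's quasi-likelihood test, Benjamini-Hochberg adjustment over 16325 genes), against 4.34% and 2.88% of all genes tested. In males 16 were higher and 0 lower, against 3.08% and 2.53%. At an unadjusted p under 0.05, 39 members in females and 33 in males differed in either direction. These were 50% and 42.3% of members tested, beside 21.4% and 18.1% of all genes. Called higher in both sexes were 14 members (17.9% of those tested), against 2.19% of all genes, and 0 were lower in both, against 1.79%. The median log2 fold change of the members was 0.45 in females and 0.36 in males, beside 0.01 and -0.04 over all genes. These counts depended on single libraries, since the count in both sexes ran from 7 to 17 when each of the 18 libraries was left out in turn. It was 7 without female GD45 replicate 18 and 9 without female GD45 replicate 13, female GD60 replicate 3 or female GD60 replicate 5. The share of all genes called in both sexes was not counted in these fits. In females alone, leaving out female GD45 replicate 18 took members called from 24.4% to 10.1% and all genes from 7.22% to 3.3%. Without any of the 18, KCNAB1, KCNF1, KCNH3, KCNIP2, KCNK4 and KCNV1 stayed called in both sexes. In the deposited exon counts KCNIP2 was called in neither sex (adjusted p = 0.171 in females and 0.23 in males). KCNAB1 was not called there in males (adjusted p = 0.17). Fitted to the compared libraries alone, 0 members and 0 of all genes were called in males. At an unadjusted p under 0.05 that fit gave 32% of members beside 11.1% of all genes.

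The second question was how they differed between GD60 and GD90. In females 33 members were higher at GD90 and 6 lower, against 13.7% and 13.4% of all genes. In males 52 were higher and 3 lower, against 18.5% and 16.0%. In both sexes 30 were higher and 2 lower, against 8.84% and 7.36% of all genes. The median log2 fold change of the members was 0.51 in females and 0.86 in males, beside -0.02 and 0.01 over all genes. Of the 32 members called in both sexes, 24 stayed called in both when any of the 18 libraries was left out, and KCNF1, KCNIP4, KCNJ16, KCNK5, KCNQ3, KCNT1 and KCNT2 were among those that did not. The 6 libraries of GD90 lay wholly above the 6 of GD60 for 33 members and wholly below for 3, against 12.9% and 11.2% of all genes. For GD60 against GD45 the corresponding numbers were 20 and 0, against 4.62% and 3.84%. A call in 1 sex alone is no test of a difference between the sexes, which is given further on. Both periods share the GD60 libraries, so values of the 2 periods are set side by side and not related to each other.

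**Figure D2:**
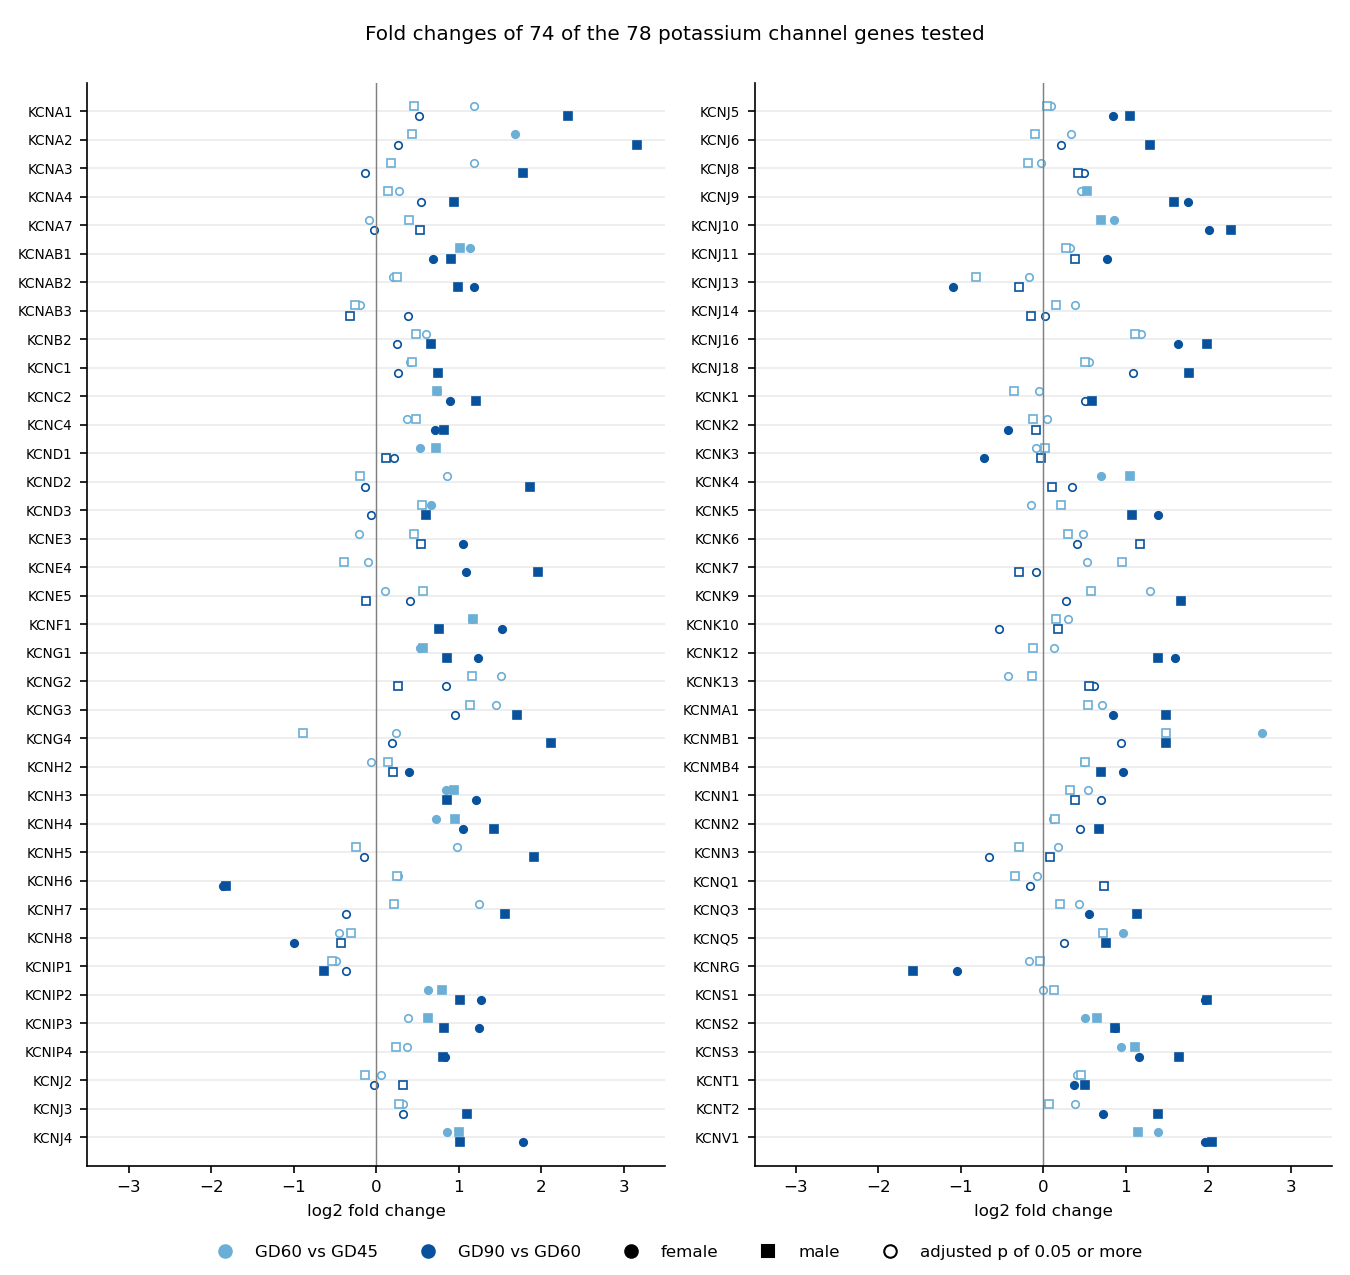
Log2 fold change (horizontal axis) of 74 of the 78 tested members, in light blue for GD60 against GD45 and dark blue for GD90 against GD60, with circles for females, squares for males and open symbols for an adjusted p of 0.05 or more. Most filled symbols lie to the right of 0, and KCNH6 and KCNRG lie to the left at GD90 in both sexes.

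Silent subunits had the highest ratio of the GD90 to the GD45 summed level among the 6 classes. Of 9 tested, 5 rose in both sexes from GD45 to GD60 and 6 from GD60 to GD90, against 2.19% and 8.84% of all genes. None fell in both sexes, against 1.79% and 7.36% of all genes. KCNV1 (ENSSSCG00000006021, chr4:27641237-27650057), which alters the gating of KCNB channels, ran from 5.13 through a median of 6.15 to 7.33 CPM at GD45. It ran from 11.9 through 13.6 to 18.9 CPM at GD60 and from 55.4 through 59.1 to 65.4 CPM at GD90. The 3 days were fully separate. KCNV1 rose by 1.39 ± 0.20 (log2 fold change ± SE, n = 3 against 3) in females and 1.15 ± 0.20 in males from GD45 to GD60, with adjusted p of 6.4e-04 and 0.00234. From GD60 to GD90 the increase was 1.96 ± 0.19 in females and 2.05 ± 0.19 in males, with adjusted p of 1.9e-06 and 1.6e-06.

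KCNF1 (ENSSSCG00000033463, chr3:125664365-125665879), was the silent subunit with the highest level per length on each day. It ran from 11.7 through 20.5 to 25.3 CPM at GD45, from 31.9 through 42.5 to 63.3 CPM at GD60 and from 83.1 through 98.1 to 113 CPM at GD90. The days did not overlap. The increase from GD45 to GD60 was 1.16 ± 0.23 in females and 1.17 ± 0.23 in males, with adjusted p of 0.00561 and 0.00518. From GD60 to GD90 it was 1.53 ± 0.23 in females and 0.76 ± 0.22 in males, with adjusted p of 1.1e-04 and 0.0151.

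KCNS1 (ENSSSCG00000007385, chr17:47483945-47492567) ran from 1 through 1.46 to 1.63 CPM at GD45 and from 1.34 through 1.45 to 1.62 CPM at GD60, so that these days overlapped. At GD90 it ran from 3.98 through 5.87 to 7.17 CPM, above every earlier library. The change from GD45 to GD60 was 0.00 ± 0.28 in females (log2, adjusted p = 0.997) and 0.13 ± 0.28 in males (adjusted p = 0.861), while that from GD60 to GD90 was 1.96 ± 0.27 and 1.99 ± 0.27, with adjusted p of 5.2e-05 and 4.2e-05. KCNS2 and KCNS3 rose in both sexes in each period, by 0.50 to 0.87 for KCNS2 and by 0.94 to 1.65 for KCNS3. In the deposited exon counts, which held 1.81% as many counts for KCNS2, its female value from GD60 to GD90 was -0.15 (adjusted p = 0.906). Its other calls were not kept there either (adjusted p = 0.131 in females and 0.577 in males from GD45 to GD60, 0.836 in males from GD60 to GD90). For KCNS3, with 14% as many exon counts, only the male call from GD60 to GD90 was kept (adjusted p = 0.00773). Its other adjusted p values there were 0.425 in females and 0.476 in males, then 0.102 in females. KCNG1 also rose in each period and reached 79.8 to 102 CPM at GD90. Its calls from GD45 to GD60 were kept in 3 of the 18 fits with a library left out in females and in 7 of 18 in males. KCNG3, under 1 CPM at GD45 and GD60, was called higher from GD60 to GD90 in males, by 1.71 ± 0.51 (adjusted p = 0.0172).

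KCNB2, a delayed rectifier with which silent subunits assemble, had mean levels of 1.9, 2.79 and 3.85 FPKM on the 3 days. The summed medians of 24.1, 45.1 and 108 FPKM for the silent subunits cover 10 genes and are no like measure. KCNF1 alone had a median of 64.8 FPKM at GD90. KCNB2 was called higher from GD60 to GD90 in males, by 0.66 ± 0.21 (adjusted p = 0.0221), and its female value was 0.25 ± 0.21 (adjusted p = 0.41).

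**Figure D3:**
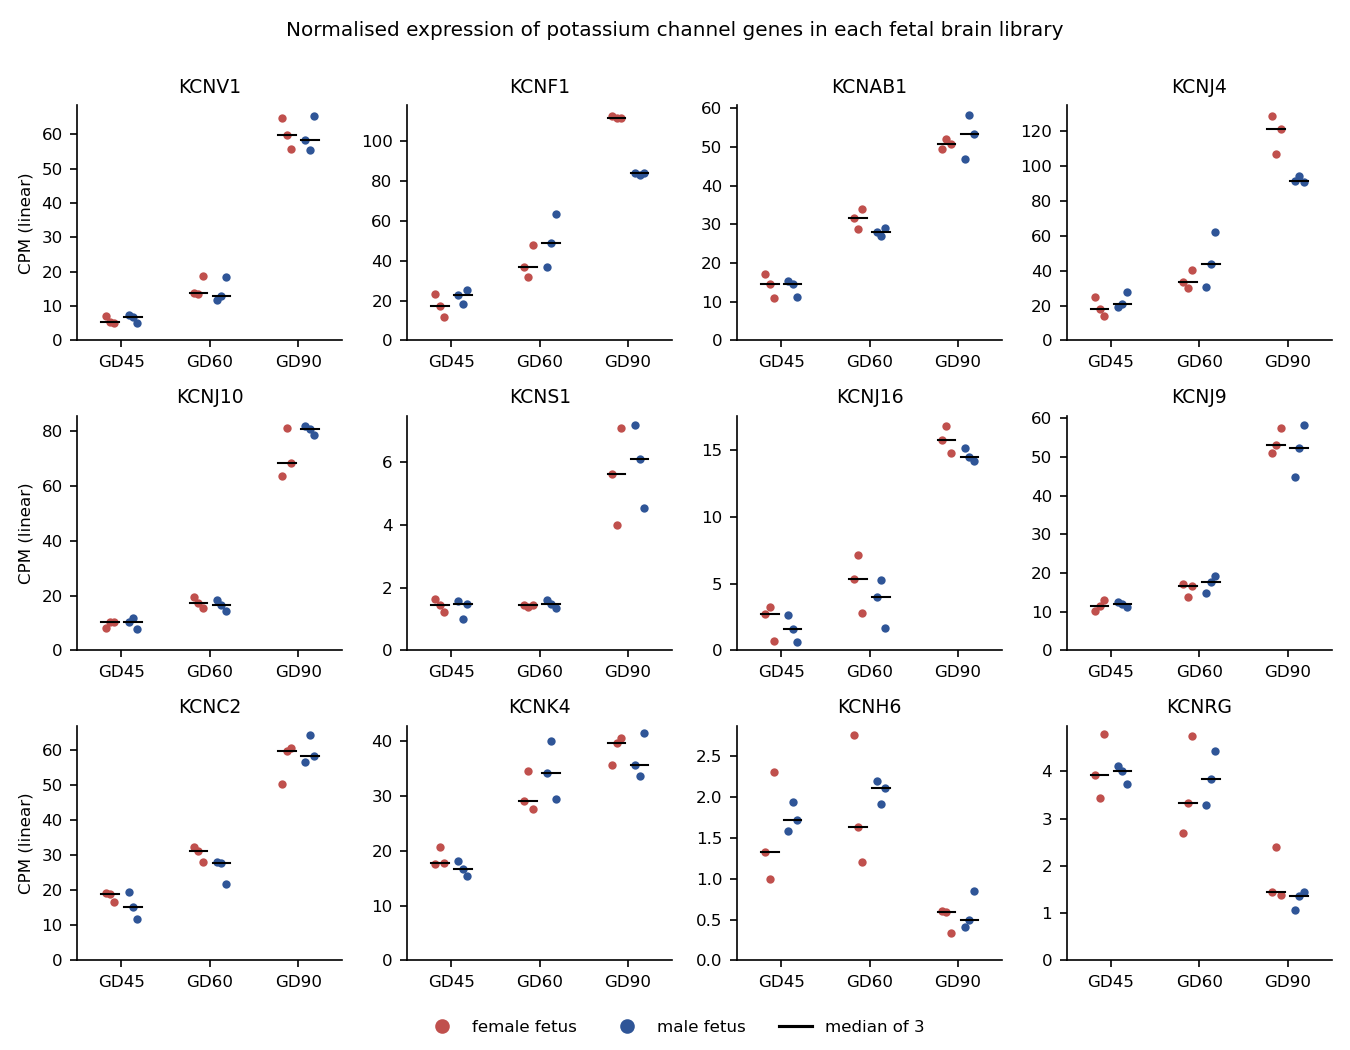
CPM per library (vertical axis) at GD45, GD60 and GD90 for 12 members, with females in red, males in blue and black lines for the median of 3. KCNV1 reached 55.4 to 65.4 and KCNJ10 63.4 to 81.9 CPM at GD90, while KCNH6 and KCNRG stood lower at GD90 than at GD60.

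Of 13 inward rectifiers tested, 2 rose in both sexes from GD45 to GD60 (KCNJ4 and KCNJ10), against 2.19% of all genes. From GD60 to GD90 5 did (KCNJ4, KCNJ5, KCNJ9, KCNJ10 and KCNJ16), against 8.84% of all genes. KCNJ10 (ENSSSCG00000031858, chr4:90422025-90457407), the astrocyte channel that buffers extracellular potassium, ran from 7.93 through 10.4 to 11.9 CPM at GD45. It ran from 14.3 through 17 to 19.6 CPM at GD60 and from 63.4 through 79.6 to 81.9 CPM at GD90. The days were separate, and the increase from GD60 to GD90 was 2.01 ± 0.16 in females and 2.28 ± 0.16 in males, with adjusted p of 2.6e-07 and 9.7e-08. From GD45 to GD60 it was 0.86 ± 0.16 and 0.70 ± 0.16, with adjusted p of 0.00403 and 0.015.

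KCNJ16 (ENSSSCG00000034358, chr12:10368378-10865310), which forms mixed channels with KCNJ10, had a mean of 1.83 FPKM at GD90 beside 14.3 FPKM for KCNJ10. It ran from 0.622 through 2.16 to 3.28 CPM at GD45, from 1.66 through 4.65 to 7.15 CPM at GD60 and from 14.2 through 15 to 16.8 CPM at GD90. GD90 stood above the earlier days, while GD45 and GD60 overlapped. The increase from GD60 to GD90 was 1.63 ± 0.47 in females and 1.99 ± 0.48 in males, with adjusted p of 0.0163 and 0.00478. The deposited exon counts held only 33 counts for KCNJ16 beside 2103 in the gene counts (1.57%). Its values thus rest on the gene counts alone.

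Markers of astrocytes moved over the same days. All 6 markers were tested and none was at 0, and their summed level was 220 to 382 CPM at GD45, 462 to 595 at GD60 and 1662 to 2155 at GD90. Of the 6, 2 rose in both sexes from GD45 to GD60 and 4 from GD60 to GD90, against 2.19% and 8.84% of all genes. The same shares apply to the marker counts that follow. GFAP, a filament of astrocytes, and AQP4, their water channel, rose in both sexes in each period. SLC1A2 and GJA1 were called in both sexes in neither period. Markers of oligodendrocytes, of which 5 of 6 were found, summed to 62.9 to 83.5, 84.4 to 111 and 1865 to 3174 CPM, and 5 of 5 rose from GD60 to GD90. Markers of neurons summed to 5954 to 8733, 6908 to 9983 and 7678 to 10101 CPM, and 4 of 6 rose in both sexes from GD60 to GD90. TUBB3, the marker with the highest CPM (median 3361 at GD90), was called lower in males over that period, at -0.67 ± 0.20 (adjusted p = 0.0179). Its female value was -0.09 ± 0.20 (adjusted p = 0.791). Progenitor markers, of which 4 of 6 were found, had summed medians of 548, 294 and 132 CPM. The 5 markers of oligodendrocyte precursors had medians of 166, 282 and 605 CPM and the 5 of microglia 63.3, 71 and 140 CPM. The part of cell composition in the changes of the KCN genes was not tested.

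KCNJ9 (ENSSSCG00000006393, chr4:90397850-90430160), a subunit of the G-protein-gated channels that inhibit neurons through neurotransmitter receptors, lies beside KCNJ10 on the opposite strand, and the gene spans overlap without shared exons. It ran from 10.1 through 11.8 to 13 CPM at GD45, from 13.9 through 16.9 to 19.3 CPM at GD60 and from 44.9 through 52.6 to 58.3 CPM at GD90, with no overlap between days. The increase from GD60 to GD90 was 1.75 ± 0.14 in females and 1.59 ± 0.14 in males, with adjusted p of 3.3e-07 and 9.2e-07. Of the other G-protein-gated subunits, KCNJ5 rose by 0.84 and 1.05 in females and males over that period, with adjusted p of 0.00772 and 0.00152. KCNJ3 and KCNJ6 were called higher in males, by 1.10 ± 0.27 and 1.29 ± 0.18, and had values of 0.33 ± 0.26 and 0.21 ± 0.18 in females.

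KCNJ4 (ENSSSCG00000000106, chr5:9541906-9548989), a strong inward rectifier of forebrain neurons, ran from 14.1 through 20.1 to 27.8 CPM at GD45, from 30.1 through 37 to 62.2 CPM at GD60 and from 90.7 through 101 to 129 CPM at GD90. The days did not overlap. It rose by 0.86 ± 0.23 in females and 1.01 ± 0.23 in males from GD45 to GD60 (adjusted p = 0.0332 and 0.016) and by 1.78 ± 0.23 and 1.02 ± 0.23 from GD60 to GD90 (adjusted p = 3.6e-05 and 0.00302). KCNJ2, a related strong rectifier, had medians of 7.96, 7.65 and 8.07 CPM with overlapping ranges and passed no test. The ATP-sensitive subunits were at similar medians over the days for KCNJ8 (5.33, 4.5 and 5.96 CPM), whose level is uncertain because it shares exon bases with ABCC9 on the same strand, while KCNJ11 was called higher in females at GD90, by 0.77 ± 0.17 (adjusted p = 0.00312).

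KCNJ13, a rectifier of transporting epithelia including the choroid plexus, had medians of 15.5, 11.4 and 6.85 CPM. It fell in females from GD60 to GD90 by 1.09 ± 0.24 on the log2 scale (adjusted p = 0.00308), and the value in males was -0.30 ± 0.24 (adjusted p = 0.351). With counts of both sexes summed per litter, taken from equal day and litter size, KCNJ13 was called lower, at -0.73 ± 0.18 (adjusted p = 0.00946). The 3 choroid plexus markers, none at 0, summed to 886 to 1750 CPM at GD45, 632 to 1168 at GD60 and 396 to 958 at GD90. None of the 3 was called in both sexes in either period, and their part in the KCNJ13 value was not tested.

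Among the voltage-gated channels that form their own pore, 4 of 26 tested rose in both sexes from GD45 to GD60 (KCNC2, KCND1, KCNH3 and KCNH4). From GD60 to GD90 7 did. The shares of all genes were 2.19% and 8.84%. KCNC channels allow fast repolarisation and high firing rates. KCNC2 ran from 11.7 through 17.8 to 19.5 CPM at GD45, from 21.7 through 28.2 to 32.3 CPM at GD60 and from 50.3 through 59.1 to 64.4 CPM at GD90, with no overlap. It rose by 0.74 ± 0.16 in each sex from GD45 to GD60 (adjusted p = 0.0103 and 0.0117) and by 0.90 ± 0.16 and 1.21 ± 0.16 from GD60 to GD90. KCNC4 rose in both sexes from GD60 to GD90, by 0.72 ± 0.17 and 0.82 ± 0.17. KCNC1 was called higher in males over that period, by 0.75 ± 0.19, and had a female value of 0.26 ± 0.19.

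KCNQ genes encode channels of the M current, which restrains repetitive firing. KCNQ3 ran from 22.1 through 26 to 27.4 CPM at GD45, from 24.7 through 31.1 to 42 CPM at GD60 and from 42.4 through 57.9 to 71.5 CPM at GD90. GD90 lay above the earlier days, which overlapped, and the increase from GD60 to GD90 was 0.56 ± 0.17 in females and 1.14 ± 0.17 in males (adjusted p = 0.0188 and 1.0e-04). KCNQ5 was called higher from GD45 to GD60 in females, by 0.97 ± 0.21 (adjusted p = 0.00985), and from GD60 to GD90 in males, by 0.76 ± 0.21 (adjusted p = 0.0101).

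The KCNH subfamily, related to ether-a-go-go channels, held members that moved both ways. KCNH3 (ENSSSCG00000000203, chr5:15495156-15517024), a forebrain channel, ran from 21.8 through 24.4 to 29.7 CPM at GD45, from 37.9 through 44 to 63.4 CPM at GD60 and from 91.5 through 94 to 99.1 CPM at GD90. These ranges were separate, and the increases were 0.85 ± 0.15 and 0.94 ± 0.15 in the first period and 1.21 ± 0.15 and 0.86 ± 0.14 in the second, for females and males. KCNH4 rose in each period as well, by 0.73 to 1.43. KCNH2, which carries a delayed rectifier best known from the heart, was more even, with medians of 46, 48.7 and 58.2 CPM.

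KCNH6 (ENSSSCG00000017295, chr12:15353867-15374818) was the member with the largest fall. It ran from 1 through 1.65 to 2.3 CPM at GD45, from 1.2 through 2.01 to 2.75 CPM at GD60 and from 0.331 through 0.545 to 0.853 CPM at GD90. GD90 lay below the earlier days, which overlapped. The change from GD60 to GD90 was -1.85 ± 0.42 in females and -1.82 ± 0.41 in males, with adjusted p of 0.00327 and 0.00284. KCNH8 had medians of 6.9, 4.78 and 3.31 CPM, and its 6 libraries at GD90 lay below the 6 at GD60. It was called lower in females, at -0.99 ± 0.34 (adjusted p = 0.0375), and had a male value of -0.43 ± 0.33 (adjusted p = 0.329). With counts summed per litter KCNH8 was called lower, at -0.71 ± 0.21 (adjusted p = 0.0226).

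KCND channels carry the fast transient current that delays firing, and KCNIP proteins bind them and carry them to the membrane. KCND1, on the X chromosome, rose from GD45 to GD60 by 0.53 ± 0.12 in females and 0.73 ± 0.12 in males (adjusted p = 0.012 and 0.00165) and had values of 0.22 ± 0.12 and 0.12 ± 0.12 from GD60 to GD90 (adjusted p = 0.173 and 0.435). In the deposited exon counts KCND1 was called in neither sex from GD45 to GD60 (adjusted p = 0.244 in females and 0.261 in males). KCND2 varied widely between libraries of the same day, from 8.64 to 41.4 CPM at GD60 and from 20.6 to 60.8 CPM at GD90. KCNIP2 stood at 14.8 to 18 CPM at GD45, 25.1 to 31.2 at GD60 and 55.4 to 67.7 at GD90, and its days were separate. It rose by 0.63 ± 0.11 and 0.80 ± 0.12 from GD45 to GD60 and by 1.27 ± 0.11 and 1.02 ± 0.11 from GD60 to GD90, in females and males. KCNIP3 and KCNIP4 rose in both sexes from GD60 to GD90, with medians going from 29.7 to 65.6 and from 13.8 to 28.6 CPM.

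KCNIP1, which also binds KCND channels, had the opposite order of levels. Its medians were 71.1, 46 and 34.3 CPM with overlapping ranges, and it was called lower from GD60 to GD90 in males, at -0.63 ± 0.21 (adjusted p = 0.0301). The female value was -0.37 ± 0.21 (adjusted p = 0.207). With counts summed per litter KCNIP1 was called lower in each period, at -0.48 ± 0.13 and -0.52 ± 0.13 (adjusted p = 0.0303 and 0.00812). DPP6, a further subunit of these channels, rose from GD60 to GD90 by 0.48 ± 0.09 and 0.47 ± 0.09, in females and males.

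Of the KCNA subfamily, 0 of 5 tested members were called in both sexes in either period. Of all genes, 2.19% and 8.84% were higher and 1.79% and 7.36% lower in both sexes in the 2 periods. KCNA1, KCNA2, KCNA3 and KCNA4 were called higher from GD60 to GD90 in males, by 2.33 ± 0.55, 3.16 ± 0.47, 1.78 ± 0.36 and 0.95 ± 0.22. KCNA2 was also called higher from GD45 to GD60 in females, by 1.68 ± 0.48 (adjusted p = 0.0429). Among their KCNAB subunits, which bind the inner face of these channels, KCNAB1 (ENSSSCG00000025810, chr13:95959577-96375856) ran from 11.1 through 14.6 to 17.3 CPM at GD45, from 26.9 through 29 to 34 CPM at GD60 and from 46.8 through 51.5 to 58.4 CPM at GD90. The days were separate, with increases of 1.14 ± 0.16 and 1.02 ± 0.16 in the first period and 0.69 ± 0.15 and 0.91 ± 0.15 in the second, for females and males. KCNAB1 shares exon bases with SSR3 on the opposite strand, and the sources used here do not state whether counting used strand. KCNAB2 had medians of 50.3, 59.7 and 123 CPM and rose from GD60 to GD90. KCNAB3 had medians of 84.7, 79.6 and 79.2 CPM and was called in neither sex in either period.

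Of the proteins known to attach to KCN channels or to form the related HCN pacemaker channels, 16 of 18 listed were tested. From GD45 to GD60 1 rose in both sexes (HCN2), against 2.19% of all genes, and from GD60 to GD90 5 did, against 8.84%. In each period 0 were lower in both sexes, against 1.79% and 7.36% of all genes. CNTN2 was called lower from GD60 to GD90 in females, at -0.82 ± 0.18 (adjusted p = 0.00308), with a male value of -0.34 ± 0.18 (adjusted p = 0.154). LGI1, a secreted partner of presynaptic KCNA channels, rose by 1.12 ± 0.20 and 1.21 ± 0.20 from GD60 to GD90, in females and males. LRRC38, an auxiliary subunit of the KCNMA1 channel, rose by 1.80 ± 0.29 and 2.02 ± 0.29, and LGI3 and HCN2 rose by 0.76 to 0.95.

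Among the calcium- and sodium-activated channels, 0 of 6 tested rose in both sexes from GD45 to GD60, against 2.19% of all genes. From GD60 to GD90 3 did, against 8.84%. KCNMA1, the large-conductance calcium-activated channel, ran from 7.54 through 12 to 13.8 CPM at GD45, from 13.5 through 17.3 to 23.7 CPM at GD60 and from 29 through 40.5 to 50.6 CPM at GD90. GD90 stood above the other days, and the increase from GD60 was 0.85 ± 0.21 in females and 1.49 ± 0.22 in males, with adjusted p of 0.00688 and 8.7e-05. Its neuronal accessory subunit KCNMB4 rose over the same period by 0.97 ± 0.18 and 0.70 ± 0.18, from a median of 27.7 to 54.3 CPM. The sodium-activated channels KCNT1 and KCNT2 rose by 0.37 and 0.50 and by 0.72 and 1.39, in females and males. In females the KCNT1 call was kept in 4 of the 18 fits with a library left out and the KCNT2 call in 15. The small-conductance channels KCNN1 and KCNN3, which shape the afterpotential, were called in neither sex in either period. KCNN2 was called in males from GD60 to GD90, by 0.67 ± 0.17 (adjusted p = 0.00581). With counts summed per litter, taken from equal day and litter size, KCNN1 was called higher from GD60 to GD90, by 0.53 ± 0.17 (adjusted p = 0.0311).

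KCNMB1, a KCNMA1 subunit of smooth muscle, rested on few reads. It had 4, 2 and 0 counts in the female GD45 libraries, and its call in females from GD45 to GD60 (adjusted p = 0.0193) is read with that depth.

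Tandem-pore channels had the lowest ratio of the GD90 to the GD45 summed level. Of 11 tested, 1 rose in both sexes from GD45 to GD60 and 2 from GD60 to GD90, against 2.19% and 8.84% of all genes. Counts this small are not read as a trait of the class. KCNK4 (ENSSSCG00000013031, chr2:7817342-7823927), a leak channel opened by stretch and lipids, ran from 15.3 through 17.7 to 20.7 CPM at GD45 and from 27.6 through 31.8 to 39.9 CPM at GD60, with no overlap. It rose by 0.70 ± 0.14 in females and 1.05 ± 0.14 in males (adjusted p = 0.00648 and 5.0e-04). At GD90 it ran from 33.6 through 37.6 to 41.5 CPM, overlapping GD60, with values of 0.35 ± 0.14 and 0.10 ± 0.14 against GD60 (adjusted p = 0.0756 and 0.614).

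KCNK12 had medians of 11.7 and 12.7 CPM at GD45 and GD60 and ran from 32.1 through 37 to 40.6 CPM at GD90, above every earlier library, with increases of 1.60 ± 0.28 in females and 1.39 ± 0.28 in males against GD60. KCNK5 rose as well but stayed at 1.52 to 2.12 CPM at GD90. KCNK2, a close relative of KCNK4, and KCNK3, an acid-sensitive leak channel, were called lower in females from GD60 to GD90, at -0.43 ± 0.14 and -0.72 ± 0.20 (adjusted p = 0.0316 and 0.0116). Their male values were -0.09 ± 0.14 and -0.03 ± 0.19. The female calls were kept in 14 of the 18 fits with a library left out for KCNK2 and in 16 for KCNK3. In the deposited exon counts KCNK2 was not called in females (adjusted p = 0.93). With counts summed per litter neither gene was called (adjusted p = 0.0612 and 0.0735).

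Of the remaining accessory members, KCNE4, a subunit that inhibits several voltage-gated channels, had medians of 2.12, 2.06 and 5.22 CPM and rose from GD60 to GD90 by 1.09 ± 0.29 in females and 1.96 ± 0.30 in males. KCNRG (ENSSSCG00000009388, chr11:17784996-17793804), a soluble protein that holds back voltage-gated channel assembly, fell over that period. It ran from 2.69 through 3.58 to 4.75 CPM at GD60 and from 1.06 through 1.41 to 2.39 CPM at GD90, without overlap. Its change was -1.05 ± 0.27 in females and -1.58 ± 0.28 in males, with adjusted p of 0.00844 and 4.8e-04. KCNRG shares exon bases with TRIM13 on the same strand, to which 22378 counts were assigned against 934 for KCNRG, so its level is uncertain.

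Further members were called in 1 sex and period. From GD45 to GD60 these included KCND3 (0.67 ± 0.17) in females and KCNIP3 (0.63 ± 0.16) and KCNJ9 (0.53 ± 0.14) in males. From GD60 to GD90 they included KCNE3 (1.06 ± 0.31) and KCNH2 (0.40 ± 0.13) in females, and KCND2 (1.87 ± 0.58), KCND3 (0.61 ± 0.17), KCNH5 (1.91 ± 0.46), KCNH7 (1.56 ± 0.38), KCNG4 (2.12 ± 0.40), KCNK1 (0.59 ± 0.19), KCNK9 (1.67 ± 0.41), KCNJ18 (1.77 ± 0.45) and KCNMB1 (1.49 ± 0.49) in males. KCNA7, KCNE5, KCNG2, KCNJ14, KCNK6, KCNK7, KCNK10, KCNK13 and KCNQ1 were tested and called in neither sex in either period. Of these KCNK10 had the highest CPM, with medians of 29.9, 31.5 and 31.7. With counts summed per litter KCNG2 was called higher from GD45 to GD60, by 1.35 ± 0.32 (adjusted p = 0.0194). KCNG2 shares exon bases with SLC66A2 on the opposite strand, to which 13027 counts were assigned against 683 for KCNG2. Its level is therefore uncertain.

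The 10 members that did not pass the filter had few reads over all 18 libraries. KCNU1 had 115 counts in all, KCNK15 90, KCNN4 45, KCNJ15 21, KCNV2 17, KCNMB3 12, KCNK16 and KCNK17 6 each, KCNA10 2 and KCNJ1 1. KCNK16 and KCNK17 also share exon bases with each other. KCNJ18, tested at medians of 1.75, 2.7 and 6.99 CPM, is a near-identical relative of KCNJ12, and its reads may be split between copies.

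The third question was whether the sexes differed. At each day 0 of 78 members were called between males and females, against 0.0919% of all genes at GD45 and 0.0980% at GD60 and at GD90. At an unadjusted p under 0.05 there were 0, 4 and 13 members at the 3 days, or 0%, 5.13% and 16.7% beside 2.59%, 4.8% and 13.6% of all genes, and DESeq2 and edgeR's likelihood ratio test also called 0. With pairs of a male and a female of equal day and litter size taken as a litter block, 19 of 76 members tested were called at GD90 (25%), 16 higher and 3 lower in males, near the 21.4% of all genes called in that fit. At GD60 the same block called 1 member lower in males (KCND2), against 0.163% of all genes. The labels do not name the dams, and not every such pair deviated together, so that this block is not part of the design.

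At GD90 the closest spacing within a sex was seen for KCNF1, which stood at 113, 112 and 112 CPM in females and 84.3, 83.1 and 84.3 CPM in males. The sexes did not overlap, but the difference did not pass the test (unadjusted p = 0.0728, adjusted p = 0.381 by edgeR). KCNJ4 stood at 129, 107 and 121 CPM in females and 91.3, 94.4 and 90.7 CPM in males, again without overlap (adjusted p = 0.418).

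The test of whether the change from GD60 to GD90 differed between the sexes called 0 members and 0 of all genes tested (0%). At an unadjusted p under 0.05 there were 21 members (26.9%), beside 19.8% of all genes. DESeq2 called 5 of the members (6.41%, against 1.64% of all genes) and the likelihood ratio test 4 (5.13%, against 0.79%). For GD45 to GD60 the count was 0 by all 3 tools, and at an unadjusted p under 0.05 it was 0 by both edgeR tests and 1 by DESeq2. Without male GD45 replicate 17, a library of neither day, the test for GD60 to GD90 called 11 members, or 13.9% of those tested beside 13.3% of all genes.

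**Figure D4:**
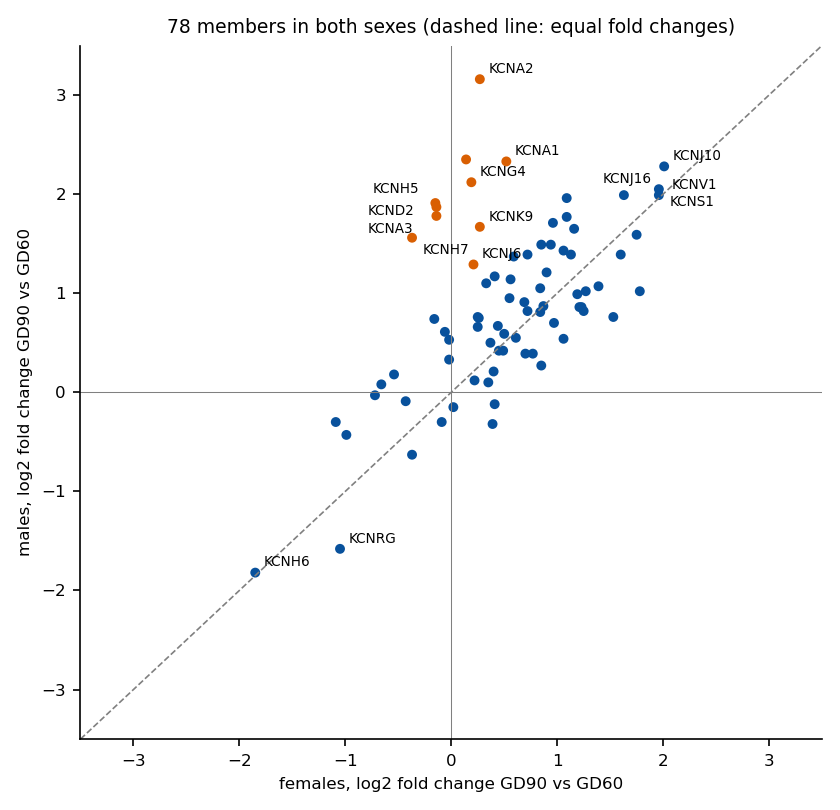
Log2 fold change from GD60 to GD90 in males against that in females for each tested member, with a dashed line of equal change; orange points are the 10 members whose change differed between the sexes by more than 1. The 10 orange points lie on the male side of the line, led by KCNA2 with a difference of 2.90. None of these differences was called by the quasi-likelihood test with all 18 libraries.

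The difference exceeded 1 on the log2 scale in 10 members, which were chosen after their values were seen, and lay below -1 in none. They included KCNA2 (2.90), KCNH5 (2.06), KCND2 (2.00), KCNG4 (1.93), KCNH7 (1.93), KCNA3 (1.92), KCNA1 (1.81), KCNK9 (1.41) and KCNJ6 (1.08), with adjusted p from 0.175 to 0.228. The share of all genes beyond 1 or -1 was not counted, so this split is not read as a trait of the family. KCNA2, a channel of axons beside the nodes of Ranvier, stood at 1.80, 2.38 and 1.31 CPM in females and 0.808, 0.837 and 0.448 CPM in males at GD60. At GD90 it stood at 1.56, 3.71 and 1.32 CPM in females and 4.93, 7.02 and 7.09 CPM in males. The sexes did not overlap at either day and changed order between them.

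KCNA3 stood at 14.4, 10.4 and 4.6 CPM in females and 8.25, 5.08 and 4.48 CPM in males at GD60, where they overlapped. At GD90 it stood at 6.95, 13 and 6.68 CPM in females and 17.6, 20.6 and 23 CPM in males, where they did not. The libraries also differed in the level of long genes (6346 bases or more) relative to short genes (2506 bases or fewer). On the log2 scale this was 0.28, 0.21 and -0.03 in the GD60 females and 0.08, -0.22 and -0.19 in the GD60 males. At GD90 it was -0.26, 0.07 and -0.10 in the females and 0.19, 0.28 and 0.38 in the males. With a trend on gene length removed, the difference between the sexes was 2.98 for KCNA2 and 1.85 for KCNA3, with adjusted p of 0.232 and 0.244.

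**Figure D5:**
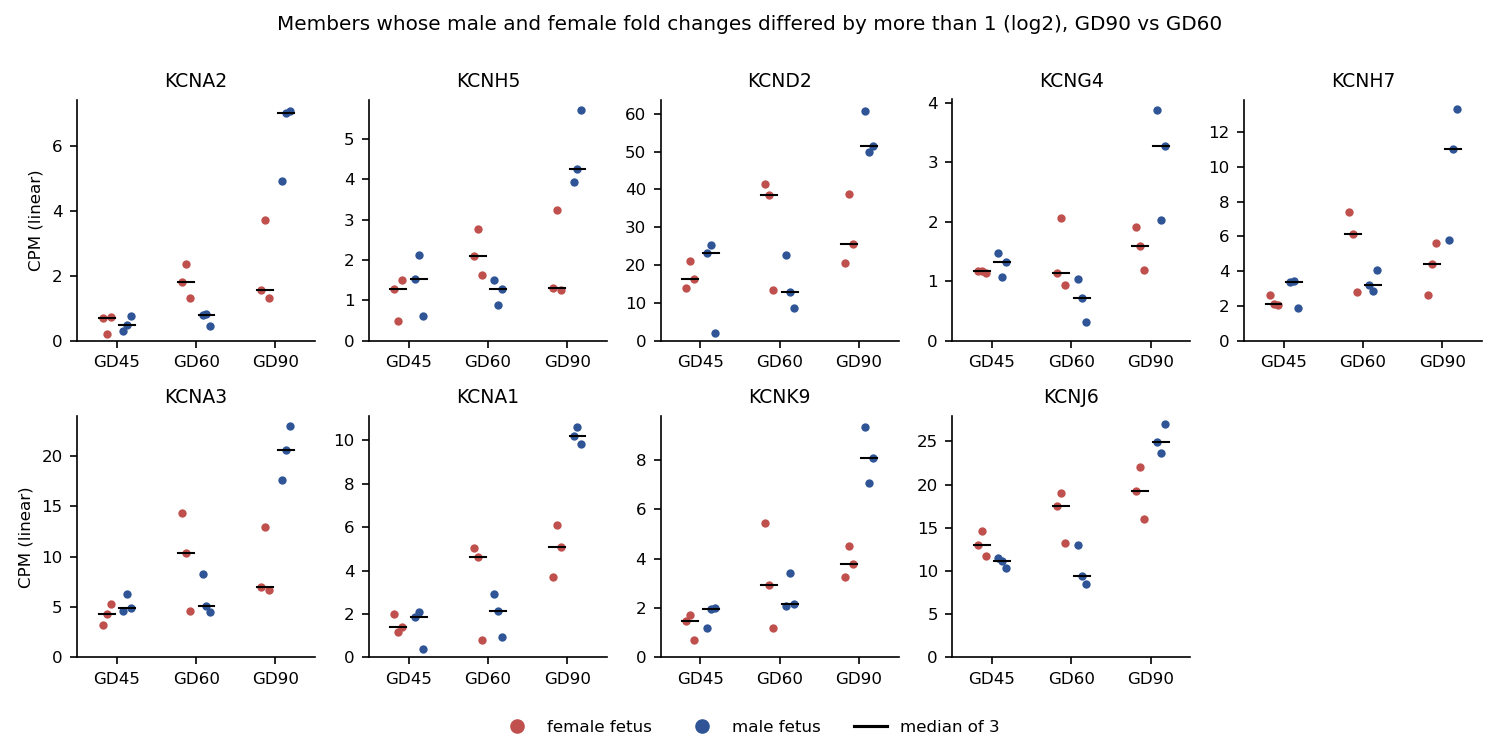
CPM per library (vertical axis) by day for 9 of the 10 members whose change from GD60 to GD90 differed by more than 1 (log2) between females (red) and males (blue). At GD90 the males stood at 4.93 to 7.09 CPM for KCNA2 and 17.6 to 23 CPM for KCNA3, above the females.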

How the data were processed

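Libraries were made from total RNA of whole brains after enrichment of polyadenylated RNA and sequenced as paired reads. The deposited gene table holds raw counts per gene, which the authors made with FastQC, Trimmomatic, HISAT2 and featureCounts on build Sscrofa11.1 and Ensembl annotation. Options for strand and for reads with several matches are not given in the sources used here, and a table of exon counts served as an alternative. Of 22 columns, 4 libraries had 2 runs, whose counts were summed to 1 library per fetus. The fetuses of a group came from litters of different size, but the labels do not name the dams.

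Genes were filtered with filterByExpr and scaled by trimmed means, and edgeR 4.0.16 (R 4.3.3, limma 3.58.1) fitted its quasi-likelihood test to 18 libraries in 6 groups, with Benjamini-Hochberg adjustment over 16325 genes and a threshold of 0.05. A self-test on counts simulated around the mean levels of these libraries was also run, and its outcome is not given here. The authors also used edgeR. FPKM was computed from the scaled counts and the file's gene lengths and served to compare levels between genes and to sum them per class and day. Coding sequences were read with samtools 1.23.1. Named with full values were the most abundant member of each subfamily and, per period, up to 6 members that rose and 6 that fell most among those called in both sexes, with a mean of at least 1 CPM and days that did not overlap, besides members of the function groups. Some members and sequences are counted but not reported here by name. The members and lists were chosen with earlier results of these data known. Alternatives were DESeq2 1.42.0, the likelihood ratio test, no scaling factors, 2 other filters, only the compared libraries, a removed trend on gene length, exon counts, 1 run per library, a litter block, counts summed per litter, and each library left out. Depth limits members under about 1 CPM most.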

Additional observations from a re-analysis of the deposited data

How the results depend on the processing

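Without scaling factors, with other filters, with 1 run per library and with the trend on gene length removed, the counts of called members stayed within 1.5 times the values above. Exon counts lowered them to 9 in females, 7 in males and 5 in both sexes for GD60 against GD45, and to 24 in females and 19 in both sexes for GD90 against GD60, and turned KCNS2 (-0.15) in females over the later period. With only the compared libraries, GD60 against GD45 gave 0 members and 0 of all genes in males, and 0 members in both sexes. At an unadjusted p under 0.05 it gave 24 members in males (32% of members tested, 11.1% of all genes). In fits of this kind the sexes at GD90 differed in 10 (13.2% of members tested, 6.88% of all genes). The GD60 to GD90 difference between the sexes was called in 7 (8.97% and 7.14%). Counts summed per litter called 28 members (27 higher, 1 lower) and 57 members (52 higher, 5 lower) in the 2 periods, or 35% and 71.2% of 80 tested beside 11.6% and 37.4% of all genes. The members lower were KCNIP1 in the first period and KCNH6, KCNH8, KCNIP1, KCNJ13 and KCNRG in the second. With a replicate block of litter, taken from equal day and litter size, the sexes differed in 1 member at GD60 (1.32%, 0.163% of all genes) and 19 at GD90 (25%, 21.4% of all genes). The correlation of paired deviations ran from -0.09 to 0.42 over 9 pairs, so the pairing stays a hint. DESeq2 called 5 (6.41%, 1.64% of all genes) and the likelihood ratio test 4 members (5.13%, 0.79%) for the GD60 to GD90 difference between the sexes, and leaving out the litter of 2 light GD45 brains gave 10 (12.7% of members and of all genes). When each library was left out in turn, calls ran from 8 to 29 in females and from 11 to 21 in males for GD60 against GD45, from 32 to 47 and from 47 to 56 for GD90 against GD60, and from 7 to 17 and from 26 to 37 in both sexes. Of the female counts for GD60 against GD45, omission of replicate 18 of the GD45 females gave 8 (10.1%, 3.3% of all genes). Omission of replicate 3 of the GD60 females gave 9 (11.4%, 3.2% of all genes). Omission of replicate 13 (GD45) or 5 (GD60) gave 11 (14.1%, 3.91% and 3.82% of all genes). Omission of male GD45 replicate 17 gave 29 (36.7%, 14% of all genes). The sexes differed in 0 members on each day in all such fits, and the GD60 to GD90 difference ran from 0 to 11, with 11 without male GD45 replicate 17 (13.9%, 13.3% of all genes), 4 without female GD60 replicate 15 and 1 without female GD90 replicate 7. The cause of these shifts was not tested.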

Other observations

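3 further genes carried a KCN name only in a separate table of gene names and were not counted among the members. KCNH1, an ether-a-go-go channel of the brain, had medians of 0.85, 1.85 and 5.25 CPM at GD45, GD60 and GD90. It was called higher from GD60 to GD90 in males, by 2.07 on the log2 scale (adjusted p = 0.00926, edgeR), with a female value of 0.16 (adjusted p = 0.864). KCNMB2, a subunit of the KCNMA1 channel, had medians of 7.24, 5.78 and 6.67 CPM and passed no test, and KCNE1 was too low to be tested. KCNV2, a silent subunit best known from the retina, had its 17 counts in GD90 libraries and none in the 12 earlier ones, where up to 3 counts per library cannot be told from 0.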
